A study of Mus musculus with 6 samples.

Results

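In human Ewing sarcoma the fusion protein EWS-FLI1 lowers the expression of many genes, and Igfbp3, Tgfbr2, Foxo1, Lox and Dkk1 are the mouse forms of 5 that are often named among them. The peaks described here are those within 50 kb of 5 gene spans in the mm9 build. These are chr11:7106000-7114000 for Igfbp3, chr9:115996000-116085000 for Tgfbr2, chr3:52072000-52154000 for Foxo1, chr18:52675000-52690000 for Lox and chr19:30620000-30624500 for Dkk1. Of 76477 peaks in 5 lists, 56 lay in these windows, namely 0 EWS-FLI1 peaks of ES48, 1 EWS-FLI1 peak of ES49, 19 H3K27ac peaks of each line and 17 H3K27me3 peaks of ES49. ES48 and ES49 are mouse cell lines of Ewing sarcoma induced by EWS-FLI1 on a Balb/c background, grown without special treatment. Both carry the fusion, so no group without it was available for comparison. EWS-FLI1 was precipitated with a FLAG antibody in both lines, as was H3K27ac with its own antibody, and H3K27me3 in ES49 alone. Each antibody has 1 library per line, so no difference between the lines has a replicate check and no test between groups was possible. Expression was not measured in these lists, so whether the genes were repressed in ES48 or ES49 was not tested.

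The 5 genes act at different points of growth control. Igfbp3 encodes a secreted protein that binds insulin-like growth factors and holds them away from their receptor, a receptor on which Ewing sarcoma cells depend. Dkk1 encodes a secreted inhibitor of Wnt signalling that binds the Wnt co-receptors. Tgfbr2 encodes the type II receptor that binds TGF-beta and switches on the type I receptor, which then phosphorylates Smad proteins. Foxo1 encodes a forkhead transcription factor that AKT signalling keeps out of the nucleus, and Lox encodes the lysyl oxidase that cross-links collagen and elastin in the extracellular matrix. H3K27ac marks active promoters and enhancers, and H3K27me3 is laid down by Polycomb repressive complex 2, often at silent promoters rich in CG dinucleotides. EWS-FLI1 combines part of EWSR1 with the DNA-binding ETS domain of FLI1, which recognises GGAA and, in the fusion, runs of GGAA repeats.

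The histone marks fell differently over the 5 genes. In ES49, H3K27me3 lay in the first 1 kb of the span of 3 of the 5 genes, Igfbp3, Foxo1 and Lox, and just upstream of Dkk1. H3K27ac lay in the first 1 kb of 2 of the 5 genes, Tgfbr2 and Foxo1, in each line. Of all 1 kb tiles of the genome, 1.12% held H3K27me3 of ES49, 2.64% H3K27ac of ES48 and 2.28% H3K27ac of ES49. The share over all gene starts, where both marks are commonly found, was not computed because no mm9 annotation was used, so these counts are a description of the 5 genes. Foxo1 was therefore the gene with both marks in the first 1 kb of its span, though no peak of either mark covered the 5′ end of the span as given. Tgfbr2 was the gene with H3K27ac and no H3K27me3 peak in its window. The spans are rounded: their lengths exceed the RefSeq gene lengths of the GRCm38 build by 228 to 1332 bp for 4 genes and fall short by 1412 bp for Igfbp3. Distances below are counted from the 5′ end of the span, positive in the direction of transcription, and carry an error of that order. The 1 kb zone was chosen after the peaks had been seen.

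The promoters of the 3 genes whose first 1 kb held a peak and whose sequence was at hand are shown. They are shown because GGAA is the core that the ETS domain reads. At Foxo1, H3K27ac began 0.152 kb inside the span in ES48 and 0.155 kb in ES49. H3K27me3 there ended 0.245 kb upstream and resumed 0.868 kb inside. By the rounded span, the printed Foxo1 bases would lie mostly outside the called peaks. The H3K27ac offsets, however, are smaller than the 228 bp by which that span exceeds the RefSeq length. The RefSeq start was not placed in mm9, so whether H3K27ac covered the printed bases was not determined. Each runs from 250 bases before to 50 after the RefSeq start in GRCm38.p6, on the minus strand for Igfbp3 and Tgfbr2 and on the plus strand for Foxo1. Capitals mark GGAA, or TTCC, which is GGAA on the other strand.
Igfbp3: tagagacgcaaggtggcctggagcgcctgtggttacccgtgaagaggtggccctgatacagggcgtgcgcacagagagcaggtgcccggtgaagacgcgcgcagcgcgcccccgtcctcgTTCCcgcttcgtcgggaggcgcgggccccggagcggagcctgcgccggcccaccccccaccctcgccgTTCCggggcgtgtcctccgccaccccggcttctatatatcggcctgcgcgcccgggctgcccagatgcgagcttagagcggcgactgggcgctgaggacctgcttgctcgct
Tgfbr2: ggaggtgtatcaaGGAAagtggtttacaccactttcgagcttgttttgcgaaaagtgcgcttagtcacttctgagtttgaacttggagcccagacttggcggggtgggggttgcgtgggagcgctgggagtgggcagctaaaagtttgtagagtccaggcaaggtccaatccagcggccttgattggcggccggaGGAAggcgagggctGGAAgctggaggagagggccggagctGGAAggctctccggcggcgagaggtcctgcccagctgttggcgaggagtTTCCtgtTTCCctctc
Foxo1: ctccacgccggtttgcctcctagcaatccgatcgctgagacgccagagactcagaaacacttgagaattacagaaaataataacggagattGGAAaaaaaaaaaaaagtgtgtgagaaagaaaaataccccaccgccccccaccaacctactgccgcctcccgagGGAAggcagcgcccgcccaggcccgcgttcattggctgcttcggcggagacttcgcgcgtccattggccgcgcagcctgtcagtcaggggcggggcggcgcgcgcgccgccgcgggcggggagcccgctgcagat

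RefSeq gave a promoter for 4 of the 5 genes, Lox being the exception, and 32851 promoters of 300 bases served as the background. GGAA on either strand, overlaps allowed, occurred 6 times in the Tgfbr2 promoter, 3 times in that of Dkk1 and 2 times in those of Igfbp3 and Foxo1. The median over all promoters was 3, with 15.7% of them holding at least 6 and 96.0% holding at least 1. The tandem repeat GGAAGGAA, found in 3.79% of promoters, and the ETS motif CCGGAAG, found in 8.86%, had no match in these 4 windows. The same held for TGANTCA, a form of the AP-1 motif (7.81% of promoters), and for GTCTAGAC, the palindromic Smad motif (0.213%). TATAAA, the TATA box core, matched 1 time in Dkk1 and in 13.6% of all promoters. The CG dinucleotide occurred 37 times in the Igfbp3 promoter and 31 times in that of Foxo1, against 15 in Tgfbr2, 9 in Dkk1 and a median of 7. At least as many were found in 5.58% of promoters for Igfbp3, 10.6% for Foxo1, 34.6% for Tgfbr2 and 45.8% for Dkk1. Igfbp3 and Foxo1, the CG-richest of the 4, were also the 2 with H3K27me3 in the first 1 kb of the span. That match depends on this zone, which was chosen after the peaks had been seen and leaves out upstream bases. At Foxo1 the H3K27me3 peak in the zone began 0.868 kb inside the span, and none covered the 5′ end of the span as given. Dkk1, with 9 CG, had an H3K27me3 peak 0.361 kb upstream, outside the zone.

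**Figure D1:**
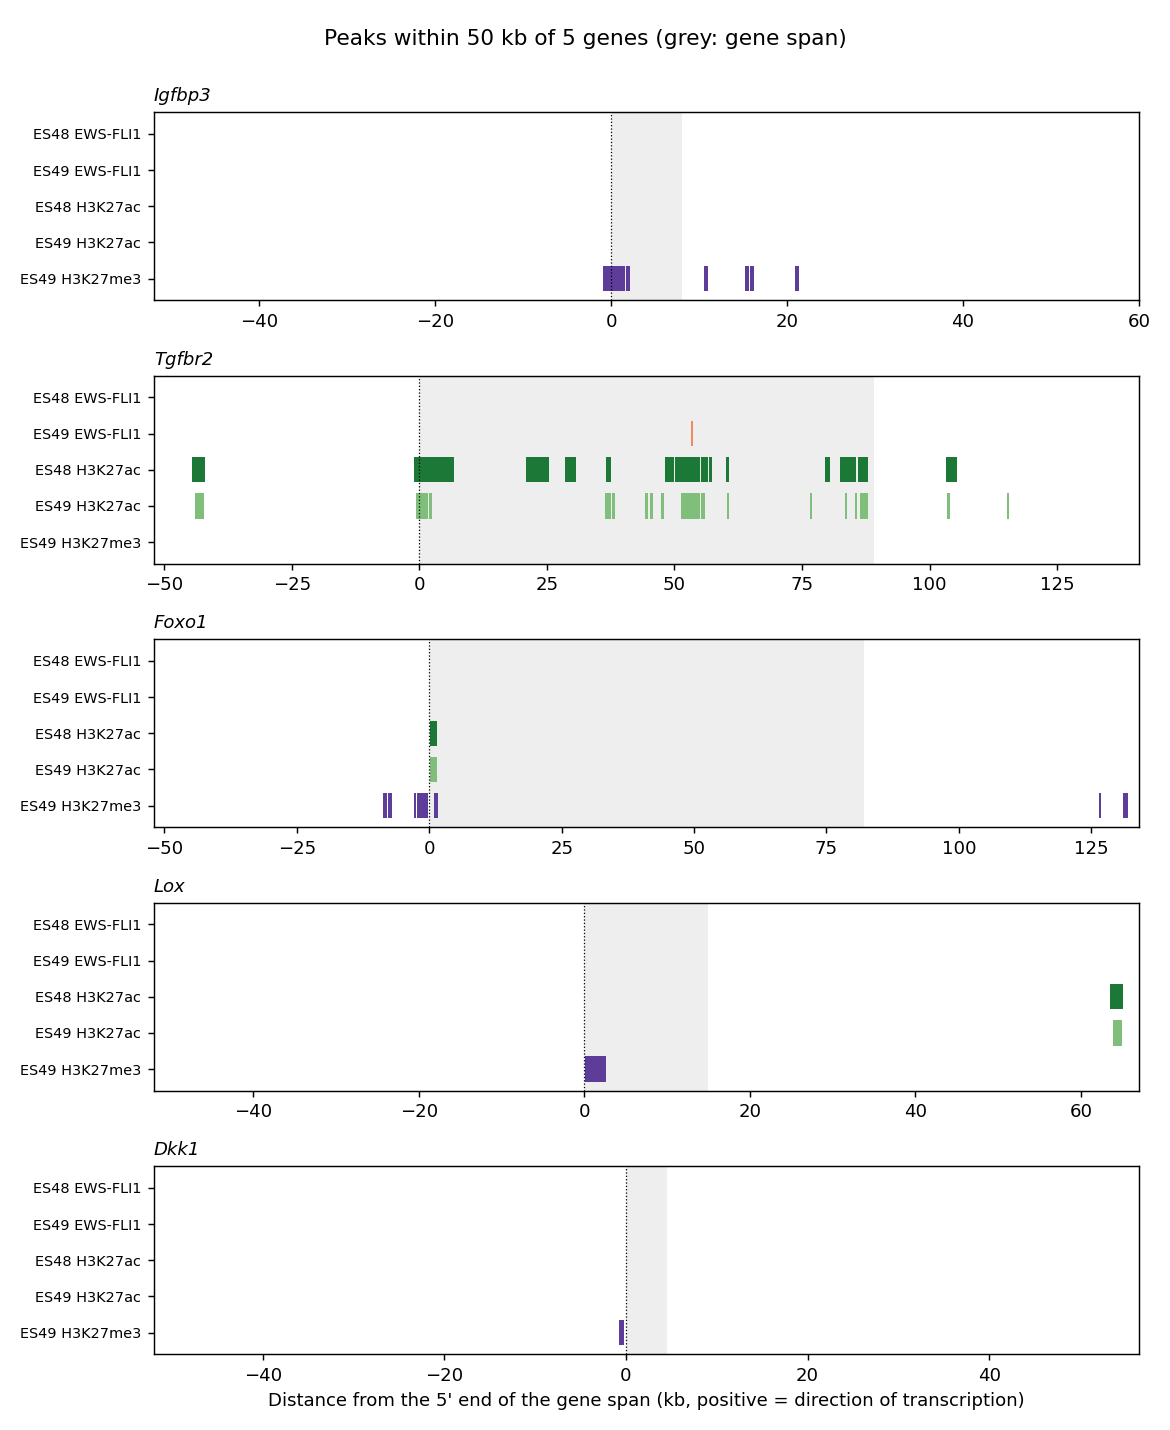
Peaks of the 5 lists around each gene. The horizontal axis is the distance from the 5′ end of the gene span in kb, grey marks the span, each row is 1 list, and peaks narrower than 0.45 kb are drawn 0.45 kb wide. Purple H3K27me3 peaks sit at or near the starts of Igfbp3, Foxo1 and Lox and beside that of Dkk1. Green H3K27ac peaks fill the Tgfbr2 window, and the 1 EWS-FLI1 peak lies inside Tgfbr2.

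To judge how common such windows are, the genome was laid out in end-to-end tiles as long as each gene's window. The tiles serve as a description and not as a test. The windows surround genes, while the tiles run over whole chromosomes, with or without genes. Shares over windows around all genes were not computed, so the tile shares here and below cannot show whether these 5 genes differ from other genes. EWS-FLI1 peaks were rare at this scale. Of tiles 189 kb long, the length of the Tgfbr2 window, 2.62% held an ES48 EWS-FLI1 peak and 1.66% an ES49 peak, and the shares were lower for the shorter windows. In tiles as long as the shortest window, that of Dkk1, 379 of 25251 held an ES48 and 249 an ES49 EWS-FLI1 peak. The counts of 0 of 5 windows in ES48 and 1 of 5 in ES49 stand beside this background. H3K27ac was found in 3 of the 5 windows in each line and H3K27me3 in 4 of the 5. Of the 189 kb tiles, 45.3% held H3K27ac of ES48, 42.4% H3K27ac of ES49 and 20.2% H3K27me3 of ES49. In tiles as long as the Dkk1 window the same shares were 35.1%, 33.3% and 13.9%. In tiles as long as the Igfbp3 window, 108 kb, H3K27me3 was found in 14.2%.

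Igfbp3 lay in a window with H3K27me3 and no peak of another list. Its 6 H3K27me3 peaks included a broad one over the 5′ end of the span, chr11:7112396-7114889, which was 2494 bp wide with a score of 804.5. The score is the authors' own, from their peak caller, on a scale that is not stated, and it is compared here only with other peaks of its list. Of the 19560 H3K27me3 peaks, 6.31% scored as high and 5.75% were as wide, where the median width was 500 bp and the median score 89.98. The peak reached from 0.889 kb upstream to 1.60 kb inside the gene. A 349 bp peak followed at chr11:7111929-7112277, and with it the run covered 2843 bp.

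The other 4 peaks of the Igfbp3 window lay past the 3′ end of the span, between 10.5 and 21.2 kb from the gene start. These are chr11:7103052-7103477, chr11:7098405-7098756, chr11:7097721-7098184 and chr11:7092774-7093150. With the peak at chr11:7111929-7112277, the 5 smaller peaks were 349 to 464 bp wide and scored 58.56 to 89.62, all below the median of the list. The next coding gene on that side in the GRCm38 table is Igfbp1, another binding protein for insulin-like growth factors. Igfbp1 was not placed in mm9, so whether any of these 4 peaks lie at Igfbp1 was not determined. In all, H3K27me3 covered 24.4% of the Igfbp3 span and 4462 bp of the window, a length reached by 4.09% of tiles. Tiles with H3K27me3 and no H3K27ac of either line made up 6.98% of all tiles of that length. The nearest H3K27ac peaks were far off, at 439 kb from the gene start in ES48 and 518 kb in ES49, and the nearest EWS-FLI1 peaks lay 3167 and 4060 kb away.

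Dkk1, the other secreted inhibitor, had the fewest peaks of the 5 windows. A single H3K27me3 peak, chr19:30624861-30625222, lay 0.361 to 0.722 kb upstream of the span. It was 362 bp wide with a score of 61.7, and 75.2% of the list scored as high, so it was a weak call. The main H3K27me3 peak of Igfbp3, for comparison, was 2494 bp wide. Tiles as long as this window held H3K27me3 without H3K27ac of either line in 6.95% of cases, and 3146 of 25251 had as much length under H3K27me3. No H3K27ac or EWS-FLI1 peak fell in the window. The nearest H3K27ac lay 518 kb away in both lines, at chr19:30104277-30106700 in ES48 with a score of 3100 and at chr19:30106039-30106493 in ES49 with a score of 78.03. The nearest EWS-FLI1 peak was 2430 kb away in ES48 and 11629 kb in ES49.

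Lox, the matrix enzyme, carried H3K27me3 inside the 5′ end of its span and H3K27ac only at the far edge of its window. Lox was taken to lie on the minus strand from general knowledge, as the promoter table does not list it. The main H3K27me3 peak, chr18:52687822-52689938, was 2117 bp wide with a score of 1139.8, reached from 0.062 to 2.18 kb inside the span, and only 4.54% of the list scored as high. It was the highest score of the 17 H3K27me3 peaks near the 5 genes. The Lox span is rounded and exceeds the RefSeq length by 1193 bp. The offset of 0.062 kb is smaller than that, so whether this peak covered the Lox start was not determined. A second peak at chr18:52687406-52687817, 412 bp wide with a score of 72.53, continued it, and together they covered 2529 bp, 16.9% of the span. Of tiles of the same length, 6.81% had as much length under H3K27me3.

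The H3K27ac peak of the Lox window was present in both lines, at chr18:52624978-52626444 in ES48 and chr18:52625063-52626107 in ES49. The ES49 peak lay wholly inside the ES48 peak. In ES48 it scored 1570.6, and 32.2% of the list scored as high, and in ES49 it scored 608.0, with 28.8% as high. These peaks lay 63.6 and 63.9 kb from the gene start, on the side where Srfbp1 is the next coding gene in the GRCm38 table. They are among the peaks just inside the 50 kb limit, with gaps of 48.6 kb in ES48 and 48.9 kb in ES49 from the span. An H3K27me3 peak at chr18:52620568-52621098, with a gap of 53.9 kb and a score of 90.84, was just outside. At a limit of 10 kb the Lox window would therefore hold H3K27me3 alone. With the 50 kb limit it counted among the 6.08% of tiles with H3K27me3 and with H3K27ac of both lines. The nearest EWS-FLI1 peak was 870 kb away in ES48 and 14546 kb away in ES49.

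**Figure D2:**
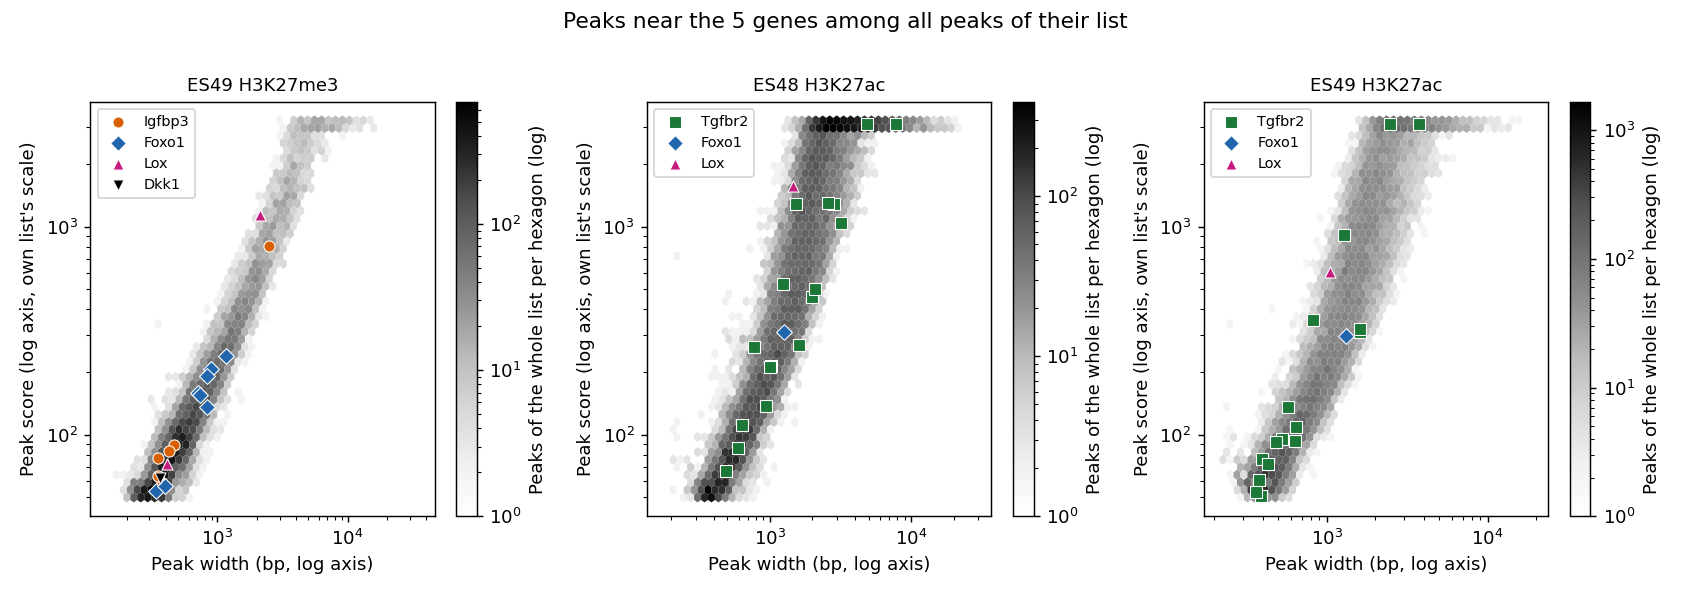
Width in bp against score of every peak in 3 lists (grey hexagons, darker for more peaks, log axes), with the peaks near the 5 genes as coloured symbols. The broad H3K27me3 peaks of Lox (2117 bp, score 1139.8) and Igfbp3 (2494 bp, score 804.5) stand above the other H3K27me3 peaks near these genes, Foxo1 is intermediate, and Tgfbr2 has 2 H3K27ac peaks at a score of 3100 in each line.

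Foxo1 had H3K27ac near its start in both lines. In ES49, H3K27me3 lay upstream of that peak and also overlapped its downstream part. The H3K27ac peak was nearly the same in the lines, chr3:52072152-52073418 in ES48 and chr3:52072155-52073470 in ES49, with widths of 1267 and 1316 bp and 1264 bp in common. Its scores were 311.4 and 298.1, and 58.9% of the ES48 list and 39.8% of the ES49 list scored as high. The acetylation at Foxo1 was thus of middling rank within each list, and it was the single H3K27ac peak in each window. H3K27ac covered 1.55% of the Foxo1 span in ES48 and 1.60% in ES49.

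H3K27me3 at Foxo1 was split into 8 peaks. Upstream of the span 5 peaks lay between 8.69 and 0.245 kb from the gene start, with widths of 334 to 1169 bp and scores of 53.62 to 239.7. The peak closest to the start on that side, chr3:52070871-52071755, scored 206.9, and 19.2% of the list scored as high. The strongest, chr3:52069689-52070857, scored 239.7, with 16.8% of the list as high. A sixth peak, chr3:52072868-52073695, lay inside the gene and shared 603 bp with the ES49 H3K27ac peak, 45.8% of that peak. It shared 551 bp with the ES48 H3K27ac peak, which is a comparison across lines. Overlap of this kind was uncommon in the series, at 0.890% of ES49 H3K27ac peaks and 1.74% of ES48 H3K27ac peaks. Of the H3K27ac peaks near the 5 genes, the Foxo1 peak of each line was the 1 that overlapped H3K27me3. Both marks on the same chromosome copy and each mark in different cells or copies cannot be told apart from peak lists.

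No H3K27me3 peak was called over the next 125 kb, and the last 2 peaks lay past the span, at chr3:52198445-52198839 (score 56.47) and chr3:52203014-52203842 (score 136.1). The latter, with a gap of 49.0 kb, was just inside the 50 kb limit. H3K27me3 covered 5878 bp of the window, 3.23% of its length, against 4.13% of the shorter Igfbp3 window. The 8 peaks had a median width of 778 bp, and the widest, at 1169 bp, was narrower than the widest peaks of Igfbp3 and Lox. Of 14492 tiles as long, 725 had as much, and 10.5% held H3K27me3 together with H3K27ac of both lines. The nearest EWS-FLI1 peak of ES48, chr3:51825478-51825662, lay 246 kb upstream with a score of 54.32, and that of ES49 was 9141 kb away.

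The Tgfbr2 window was the most acetylated of the 5 in both lines. It held 17 H3K27ac peaks in each line, no H3K27me3 peak and the single EWS-FLI1 peak. H3K27ac covered 35184 bp in ES48 and 16767 bp in ES49, 33.2% and 15.4% of the gene span. These lengths were reached by 0.931% of tiles in ES48 and 3.17% in ES49. H3K27ac of both lines without H3K27me3 was itself common, at 28.6% of the tiles. The ES48 list as a whole covers more of the genome, 48.3 Mb against 35.8 Mb, and its median peak is wider, 1475 bp against 838 bp. As a share of its own list's length the Tgfbr2 window held 0.0729% in ES48 and 0.0468% in ES49. The nearest H3K27me3 peak, chr9:115060572-115060807, lay 1024 kb from the gene start.

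**Figure D3:**
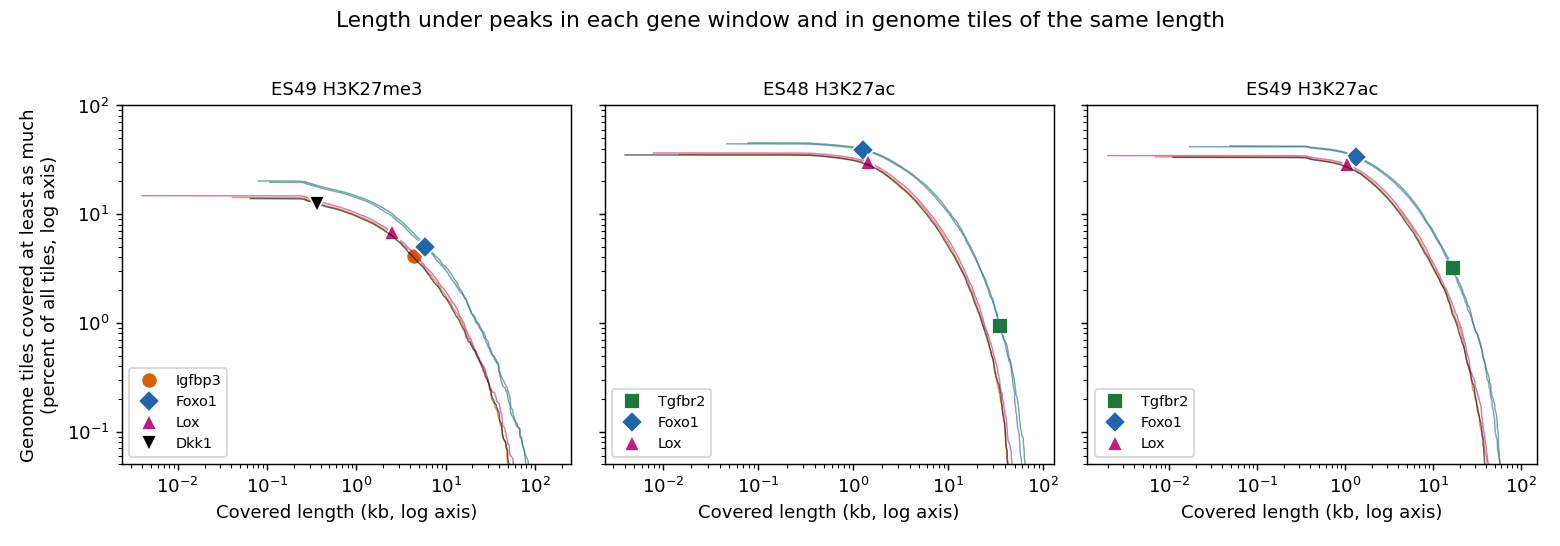
Length under peaks in each gene's window (symbols) and in all genome tiles of the same length (lines in the colour of the gene). The horizontal axis is the covered length in kb and the vertical axis the percent of tiles covered at least as much, both on log axes, and windows without a peak of the list are left out. Tgfbr2 lies near the end of the H3K27ac curves at 0.931% in ES48 and 3.17% in ES49, while Foxo1 and Lox lie near the upper left of those curves and Igfbp3, Foxo1 and Lox lie between 4.09% and 6.81% for H3K27me3.

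At the start of Tgfbr2, H3K27ac reached a score of 3100 in both lines. Of the ES48 list 19.6% and of the ES49 list 6.01% scored 3100 or more, and the highest score was 3233.06 in each. No order can be read by score among peaks that share the value 3100. The ES48 peak, chr9:116078244-116086012, was 7769 bp wide, and 1.16% of its list was as wide. It reached from 1.01 kb upstream to 6.76 kb inside the gene. The ES49 peak, chr9:116083192-116085654, was 2463 bp wide and ended 1.81 kb inside, followed by a 631 bp peak with a score of 93.1. Both ES49 peaks lay inside the ES48 peak.

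A second place inside the gene also scored 3100, the same as the start, so the score cannot rank it against the start. It was at chr9:116029936-116034829 in ES48, 4894 bp wide, and at chr9:116029942-116033704 in ES49, 3763 bp wide, each with a score of 3100. The ES49 peak lay wholly inside the ES48 peak, 51.3 to 55.1 kb from the gene start. A flanking peak accompanied it in each line, with a score of 1287.9 in ES48 (chr9:116028357-116029888) and 356.7 in ES49 (chr9:116029004-116029826). Peaks less than 12500 bp apart here formed a domain of 39.8 kb in ES48 with 16.7 kb under peaks, rank 303 of 13750 domains. In ES49 the domain was 24.3 kb long with 8.36 kb under peaks, rank 659 of 13484. Exons and introns were not assigned, because no mm9 annotation was used.

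This interior place held the EWS-FLI1 peak of ES49, chr9:116031487-116031780. The peak was 294 bp wide, 53.2 to 53.5 kb from the gene start, and its centre was 190 bp from the centre of the ES49 H3K27ac peak. Its score of 53.89 was close to the lowest score of the list, 50.08, and 43 of the 681 peaks (6.31%) scored this or lower. It was therefore a weak call by its authors' score, inside an H3K27ac peak that scored 3100. H3K27ac of the same line was found at 19.7% of ES49 EWS-FLI1 peaks. ES48 had no EWS-FLI1 peak there, although its H3K27ac peak covered the same 294 bp, and its nearest EWS-FLI1 peak was 1024 kb away at chr9:115060604-115060785. Whether EWS-FLI1 was absent from Tgfbr2 in ES48 or below the caller's limit cannot be told apart, since the lists give no read counts and the depth is unknown.

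**Figure D4:**
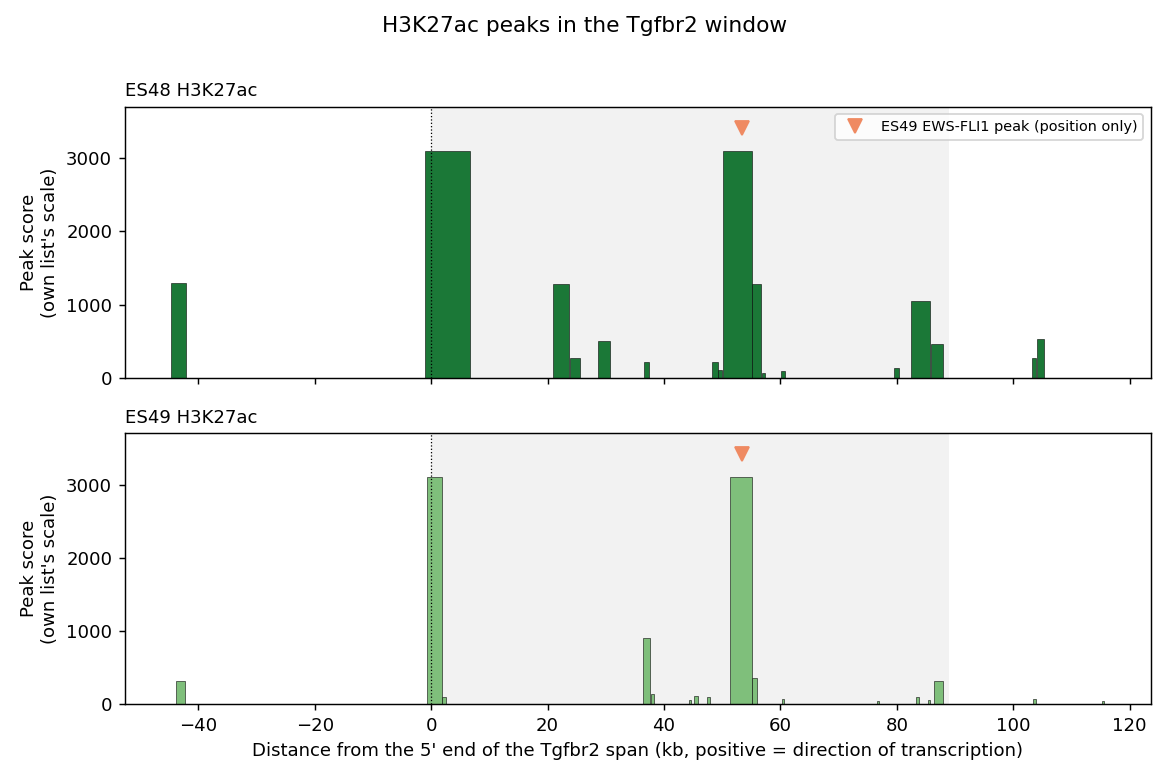
H3K27ac peaks in the Tgfbr2 window of ES48 (upper panel) and ES49 (lower panel). Bars span each peak at its distance in kb from the 5′ end of the gene span, bar height is the score on the list's own scale, grey marks the span, and the triangle gives the position of the ES49 EWS-FLI1 peak and not its score. Both lines have bars at 3100 over the start and at 51.3 to 55.1 kb, and ES48 alone has 3 peaks between 20.9 and 30.7 kb.

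The lines shared the places that scored 3100 and several that scored lower. The peaks without a partner were small in ES49 and in ES48 included a peak of 2850 bp. Of the ES48 peaks, 9 of 17 (52.9%, 95% Clopper-Pearson interval 27.8 to 77.0) had an overlapping ES49 partner, where the whole ES48 list had 66.6%. Of the ES49 peaks, 11 of 17 (64.7%, 38.3 to 85.8) had an ES48 partner, where the whole ES49 list had 68.6%. Both shares lay near their lists' background, and the intervals cover counting error only and treat neighbouring peaks as independent, which makes them too narrow. By length, 13572 bp were acetylated in both lines, 80.9% of the ES49 length and 38.6% of the ES48 length. Over the whole lists the same shares were 79.1% of the ES49 length and 58.7% of the ES48 length. The ES49 share at Tgfbr2 was thus near that of its list, and the ES48 share was lower than that of its list.

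The ES48 peaks without an ES49 partner numbered 8 and covered 10870 bp, with scores of 67.09 to 1283.8. Of these, 3 lay together at chr9:116054284-116064079, 20.9 to 30.7 kb from the gene start, and covered 6540 bp. The strongest of the 3, chr9:116061230-116064079, was 2850 bp wide with a score of 1283.8, and 35.8% of its list scored as high. The 6 ES49 peaks without an ES48 partner were small, 365 to 640 bp wide with scores of 50.69 to 136.6, and covered 2845 bp. At chr9:116047344-116048627 the ES49 peak, with a score of 911.7 and 22.4% of its list as high, stood higher in its list than the ES48 peak at chr9:116047485-116048481, with a score of 211.9 and 65.1% as high.

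Toward and beyond the 3′ end of Tgfbr2 both lines were acetylated again. In ES48 chr9:115999347-116002541 was 3195 bp wide with a score of 1045.3, beside chr9:115997103-115999079 with 459.3. The ES49 counterpart of the latter, chr9:115997076-115998695, scored 312.3, and the ES49 peaks that overlapped the former scored 60.55 and 95.88. Past the 3′ end, ES48 had chr9:115979728-115980974 with a score of 527.0 and chr9:115981065-115981839 with 264.1. ES49 had a single partner there, chr9:115981149-115981544, with a score of 76.17, and a further peak at chr9:115969427-115969817 with 50.69, close to its list's lowest score of 50.01. Upstream of the gene, the peak at chr9:116127037-116129615 in ES48 scored 1298.0 and its ES49 partner at chr9:116127270-116128875 scored 323.5, with 35.6% and 38.6% of the lists as high. These lay 42.0 and 42.3 kb upstream of the gene start, and no peak was called between them and the start peak in either line.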

How the data were processed

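The material was 5 ChIP-seq peak lists from 6 samples; input DNA of ES49 was not used here. The submitters' processing notes name mm9, the aligner Bowtie 1.1.1 and SAMtools 1.2. Peak names point to a MACS program, whose version, settings and control are not stated. The deposited score of each peak is the authors' own, on a scale that is not stated, so scores were ranked only within a list. The lists give no read counts, so the depth is unknown.

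Samples were grouped by line and antibody, with 1 library each. All peaks within 50 kb of each span were taken, and positions are 1-based. Named are the peaks over the gene starts, the widest, the highest scoring and all EWS-FLI1 and H3K27me3 peaks where a window had at most 3. Other peaks named were chosen after their values were seen. An overlap needed 1 bp in common. Genome tiles ran from the first base of each chromosome to the last peak of any list. The shares of Tgfbr2 H3K27ac peaks with a partner in the other line carry 95% Clopper-Pearson intervals. Such intervals also served to compare tile shares with their alternatives. No test was made between groups. The interval functions were tested on simulated data with known answers. The genes, spans and lists were chosen with earlier results of these data known. Related genes of the same families were not placed, because the RefSeq gene table is built on GRCm38. That table and the RefSeq promoters (GRCm38.p6) gave names, gene order, strand and sequence only. Alternatives were windows of 10 and 100 kb, the upper 50% of each list by score, an overlap of 50% of the shorter peak or peaks within 1 kb, moved tiles, autosomes alone and joining at 5 kb. Scripts ran in Python 3.11.15 (pandas 2.3.3, numpy 2.4.6), with intervals from scipy 1.17.1 and plots from matplotlib 3.10.9.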

Additional observations from a re-analysis of the deposited data

How the results depend on the processing

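Keeping the upper 50% of each list by score left 0 EWS-FLI1 peaks in ES49 (0 bp), since the single peak of 294 bp in Tgfbr2 is a weak call. It also left 7 H3K27ac peaks in ES48 (24264 bp), 8 in ES49 and 8 H3K27me3 peaks, and 5 shared H3K27ac peaks in each line; fewer peaks enter by construction. With it H3K27me3 was left in 3 of the 5 windows, since the Dkk1 peak dropped out and Igfbp3 kept 1 peak of 2494 bp out of 6. The ES48 H3K27ac peak at Foxo1 dropped out too, which left ES48 H3K27ac in 2 windows and ES49 H3K27ac in 3. Windows of 100 kb raised the ES49 H3K27ac length over the 5 windows from 19128 to 28942 bp, most of it upstream of Foxo1. On autosomes alone 4.36% of tiles had as much H3K27me3 as Igfbp3 and 7.24% as much as Lox. Joining at 5 kb cut the ES48 domain inside Tgfbr2 from 16702 to 9165 bp. The other 36 of 48 comparisons of summary values with an alternative stayed within 1.5 times or, for tiles, within the 95% interval. These include the comparisons of ES48 EWS-FLI1, which were 0 against 0 and could not change with narrower windows or the upper 50%. Of the comparisons for single genes, 22 of 156 moved beyond 1.5 times. They moved through the upper 50%, through the H3K27ac peaks added for Foxo1 at 100 kb or through those of Lox lost at 10 kb. Many of the 156 compared 0 with 0 in windows without a peak of a list, which narrower windows or the upper 50% cannot change. The 22 are thus a smaller share of the 156 than of the comparisons that could move. No paired analysis was possible because each group has 1 library. Depth is unknown, so places without a peak may lie below the caller's limit.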

Other observations

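Between 50 and 100 kb from the spans, Foxo1 had the most acetylation. Upstream of it, on the side where Maml3 is the next coding gene in the GRCm38 table, ES48 had 4 H3K27ac peaks and ES49 had 3. Among them chr3:51982706-51985813 in ES48 was 3108 bp wide and chr3:51982610-51985920 in ES49 was 3311 bp wide, each with a score of 3100. Closer to Foxo1, chr3:52000840-52003298 in ES48 scored 861.0, and chr3:52001579-52003924 in ES49 scored 1105.0. These places were seen in both lines at 68.1 to 86.2 kb from the span, outside the limit of 50 kb, and no H3K27me3 peak was called there. Beyond the upstream side of Tgfbr2, chr9:116161683-116163354 in ES48 scored 1393.0 and chr9:116161894-116163262 in ES49 scored 430.8, and 34.2% of each list scored as high. No H3K27ac peak was added for Igfbp3, Lox or Dkk1 in either line.

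The H3K27me3 peak nearest to Tgfbr2, chr9:115060572-115060807, overlapped H3K27ac of ES49, and the ES48 EWS-FLI1 peak nearest to Tgfbr2, chr9:115060604-115060785, lay in the same place and overlapped H3K27ac of ES48. The ES49 EWS-FLI1 peak nearest to the Tgfbr2 window, chr9:115061149-115061600 with a score of 91.88, lay close by, with 341 bases between it and the H3K27me3 peak, and overlapped no peak of the histone marks. Peaks of several antibodies therefore met or neighboured each other there, 1024 kb from the gene start, and the reason was not tested.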
